A study of Mus musculus with 3 samples.

Results

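The genes described are 10 members of the Toll-like receptor system of the mouse: the receptor genes Tlr1, Tlr2, Tlr3, Tlr4, Tlr7, Tlr9 and Tlr13, the co-receptor genes Cd14 and Ly86, and the adaptor gene Myd88. They were taken by symbol from the 31053 genes listed in each of 3 single-cell RNA runs, and all 10 were found. Their levels were read in 19791 cells that passed the filters, 6993 in run 1, 6720 in run 2 and 6078 in run 3. A count is a UMI (a unique molecular identifier, standing for a captured RNA molecule), and a level is the CPM of a gene, its UMIs scaled to a common total over the UMIs of a population in a run.

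All animals were Cx3cr1CreERT2/+ ; Rosa26tdTomato/+; NestinTK-eGFP/+, so no other genotype stands beside them. Cx3cr1 drives the tamoxifen-inducible Cre, which turns on the tdTomato reporter in microglia and in other cells that use Cx3cr1. Every mouse received tamoxifen, 100 mg/kg on 4 days, and viable tdTomato-positive myeloid cells were sorted from both hippocampi after perfusion and removal of myelin. The 12 animals, 6 male and 6 female, are not assigned to the 3 runs, so p-values rest only on spread between runs, which may be technical. In most comparisons this spread was pooled over genes, and a gene's own spread between runs did not enter its p-value. Age is not given in the sources used here. Every comparison is between cell populations of the same runs, with n = 3 runs.

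Toll-like receptors recognise molecules of microbes and of damaged cells. TLR1, TLR2 and TLR4 act at the cell surface, TLR2 paired with TLR1 or TLR6 on lipoproteins and TLR4 on lipopolysaccharide, while TLR3, TLR7, TLR9 and TLR13 sense nucleic acids in endosomes. CD14 hands ligands to TLR4 and TLR2, LY86 (MD-1) is the partner of the receptor-like protein CD180, and MYD88 carries the signal of all of these receptors except TLR3 to IRAK kinases, NF-kB and interferon regulatory factors. Microglia are the resident macrophages of the brain and carry much of its Toll-like receptor repertoire.

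By the GENCODE M21 annotation of GRCm38 (mm10), with whole-gene coordinates counted from 1, Tlr1 lies on chromosome 5 from 64924679 to 64933563 on the minus strand and Tlr2 on chromosome 3 from 83836272 to 83841767, also minus. Tlr4 spans 66827584 to 66930284 on the plus strand of chromosome 4, and Ly86 spans 37345208 to 37419036 on the plus strand of chromosome 13. The endosomal receptor genes are Tlr3 on chromosome 8 (45395665 to 45411080, minus), Tlr9 on chromosome 9 (106222598 to 106226883, plus), and the X-linked Tlr7 (167304929 to 167330558, minus) and Tlr13 (106143204 to 106160493, plus). Myd88 lies on chromosome 9 (119335934 to 119341411, minus). Tlr3 overlaps the antisense gene Gm45542, and Myd88 overlaps Slc22a14 on its own strand and Acaa1a on the other. Tlr1 has a near copy in Tlr6, and how reads matching more than 1 gene were counted is not given in the sources used here, so the values of Tlr1, Tlr3 and Myd88 carry that uncertainty.

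Short promoter stretches of 3 genes are shown because the factors known to bind these letters belong to the populations compared: PU.1 defines macrophages, interferon-induced factors bind the interferon response element, and NF-kB is the end point of the pathway. RefSeq promoter entries (GRCm38.p6) matched 7 of the 10 genes by symbol, all but Tlr4, Tlr7 and Cd14. Both strands of the 250 bases before each start site were searched for GAGGAAGT (PU.1), for GAAA followed after any 2 bases by GAAA (interferon response element), and for GGGA followed after any 1 base by TTTCC (NF-kB). Each motif was found in 1 of the 7 genes, on the gene's own strand, and its letters are in capitals, 5′ to 3′.
Tlr1 (PU.1): ttaaatgttgGAGGAAGTaggagcttga
Myd88 (interferon response element): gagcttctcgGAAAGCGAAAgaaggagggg
Tlr3 (NF-kB): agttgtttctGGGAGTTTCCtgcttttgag
The match in Tlr1 begins 23 bases before the start site, in chr5:64933564-64933591, outside the annotated exons of the 10 genes, the only exons checked. The match in Myd88 begins 40 bases before it, in chr9:119340039-119340068, and that in Tlr3 211 bases before it, in chr8:45410572-45410601; both windows overlap annotated exons, and all of these lie on the minus strand. Of 32851 mouse promoters of this length, 2.44% held the PU.1 letters, 2.98% those of the interferon response element and 0.356% those of NF-kB. A match describes letters and shows no binding.

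Populations were gated by detected marker genes. Reference microglia, 18805 cells, carried at least 3 of 7 microglia markers (such as P2ry12 and Tmem119) and met no other gate. The gated populations were 100 lipid-gated cells (at least 3 of 8 markers such as Spp1, Lpl, Cst7 and Itgax, known from disease-associated microglia), 98 chemokine-gated cells (Ccl3 plus Ccl4 at 0.2% of UMIs or more), 74 interferon-gated cells (at least 4 of 9 markers such as Ifit3 and Isg15) and 60 cycling-gated cells (at least 3 of 8 markers such as Mki67 and Top2a). There were also 172 border macrophage-gated cells (at least 3 of 8 markers such as Mrc1, Pf4 and Cd163), 100 MHC class II-gated cells (at least 3 of 4 class II genes) and 63 cells with Emp3, Fxyd5 and Tnfsf13b together. Gates ask for several markers in each cell and leave weaker cells of a state in the reference.

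Run 1 was the deepest, with a median of 4425 UMIs per kept cell against 3438 in run 2 and 3696 in run 3. Runs shared 7 or 8 cell barcodes pairwise, at most 0.132% of the smaller run. Run 3 stood apart in immediate early genes, whose 7 markers summed to 441 CPM in its reference microglia against 28.5 in run 1 and 42.5 in run 2, and it held 128 of the 133 cells of the early-gene gate. Droplets with transcripts of Xist and of Y-linked genes together, a sign of mixed cells, made up 2.41% of reference microglia and 17.4% of border macrophage-gated cells. In all, 197 cells met more than 1 gate and went to the first in a fixed order.

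In reference microglia all 10 genes were detected in every run. Tlr2, the shared partner of lipoprotein sensing, stood at 71.2, 97.5 and 71.1 CPM in runs 1, 2 and 3, and Tlr1 at 17.8, 17.2 and 16.5 CPM. The lipopolysaccharide receptor gene Tlr4 gave 59.6, 48.0 and 56.9 CPM, and its co-receptor gene Cd14, on chromosome 18, gave 392, 398 and 425 CPM. Run 2 was the high run for Tlr2 and the low run for Tlr4.

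Ly86 stood at 2232, 1948 and 2471 CPM in the 3 runs. The double-stranded RNA receptor gene Tlr3 gave 88.0, 65.9 and 83.8 CPM, and the single-stranded RNA receptor gene Tlr7 gave 127, 93.9 and 131 CPM. For each of these 3 genes run 2 was the lowest. Tlr13, which senses bacterial ribosomal RNA, gave 77.5, 74.6 and 79.4 CPM, and Myd88 gave 44.9, 56.3 and 41.8 CPM. Tlr9, the sensor of CpG DNA, was near the limit, with 3.93, 2.00 and 1.99 CPM from 212 UMIs in all reference cells. Levels are compared between populations within a gene only.

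Shares of cells with a UMI depend on depth, so each cell was also thinned to 2000 randomly drawn UMIs, which left out 646 shallower cells. Among thinned reference microglia, 97.6% held a Ly86 UMI and 54.0% a Cd14 UMI, and 14.7% held a Tlr2 UMI (exact 95% binomial interval 14.2 to 15.2%). A UMI of Tlr3 was found in 14.6%, of Tlr13 in 14.02%, of Tlr7 in 20.7%, of Tlr4 in 10.3%, of Myd88 in 9.19%, of Tlr1 in 3.52% and of Tlr9 in 0.565%. RNA from outside the cell was gauged in T or NK cell-gated cells, whose median was 3910 UMIs against 3814 in reference microglia. Of the 13 such cells 10 could be thinned, and 20% of them held a Ly86 UMI and 10.0% a Cd14 UMI. None of the 10 held a UMI of the other genes, an observed 0 that allows a share of up to 30.8% (exact interval). In 36 thinned choroid plexus-gated cells, at a median of 2623 UMIs before thinning, Ly86 was seen in 61.1%, Cd14 in 22.2% and Tlr2 in 5.56%, and Tlr1 and Tlr9 were not seen. These gates may hold microglial RNA of mixed droplets as well as free RNA. The microglia gate was also met by 30.8% of T or NK cell-gated and 39.3% of choroid plexus-gated cells, and microglia markers summed to 7864, 12719 and 3019 CPM in the former and 12649, 9820 and 181 CPM in the latter. The 2 sources cannot be told apart here, and intervals cover counting error only.

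**Figure D1:**
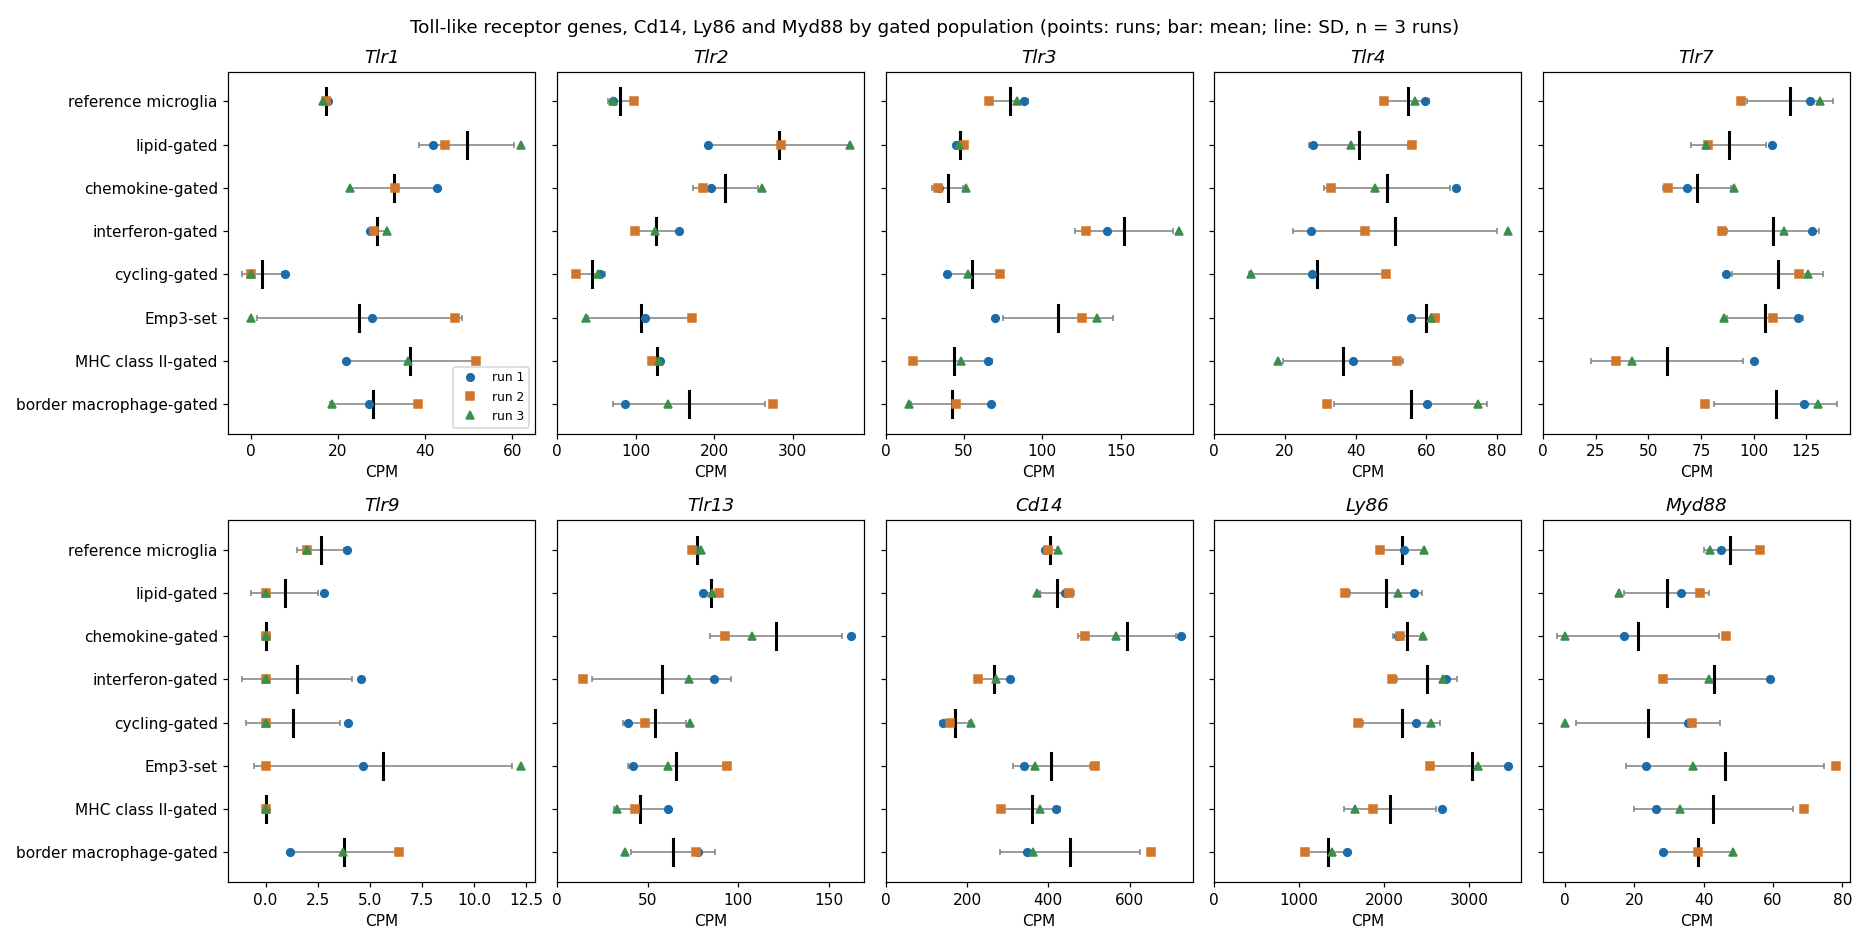
Level of each gene in CPM (x axis, linear, a separate scale per gene) in reference microglia and 7 gated populations; points are the 3 runs, the vertical bar is their mean and the line their SD. Tlr2 in lipid-gated cells lies between 192 and 372 CPM, above all 3 reference values, and Cd14 in cycling-gated cells lies between 142 and 210 CPM, below all 3.

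The first comparisons ask which of these genes differ between microglial states. Each population's UMIs were added up within a run, and edgeR's quasi-likelihood test was applied to these sums with a block for the run. Benjamini-Hochberg adjustment covered all genes that could be tested. Changes are fitted log2 changes ± SE after TMM scaling, and all 10 genes passed the low-count filter in each comparison with reference microglia. These comparisons share the same reference sums, so they are not independent of one another. The log2 TMM factor differed from that of the reference by 0.21 in cycling-gated, −0.16 in MHC class II-gated and −0.13 in border macrophage-gated cells. A larger factor lowers the scaled values of a population, and a smaller factor raises them. The median change over all genes lay between −0.11 and −0.18 in the 7 comparisons. With 60 to 172 cells per gated population, a gene that did not pass is not shown to be the same.

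**Figure D2:**
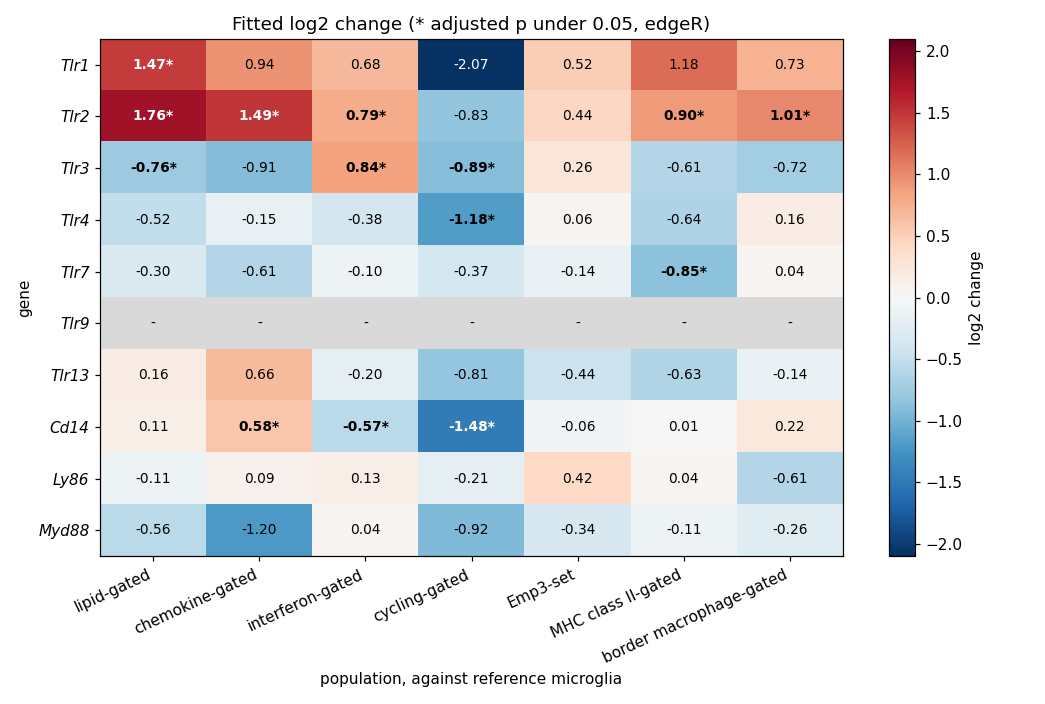
Fitted log2 change of each gene (rows) in each gated population against reference microglia (columns); colour and number give the change, a star marks an adjusted p under 0.05 and Tlr9 is left without values because few UMIs were counted. Tlr2 carries a star in 5 of the 7 columns, all with a higher level, and the cycling column holds 3 starred genes, all lower.

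Lipid-gated cells carried more RNA of the lipoprotein receptor pair and less of the endosomal Tlr3. Of the 10 genes, 2 rose and 1 fell, where 13.1% of all 11162 genes tested passed the threshold (6.18% higher, 6.94% lower). Tlr2 stood at 192, 285 and 372 CPM in runs 1, 2 and 3. All 3 runs lay above all 3 reference runs, and run 3 was the highest. The change was 1.76 ± 0.16, 3.39-fold (edgeR adjusted p = 2.59e-27). At equal depth 35.0% of lipid-gated cells held a Tlr2 UMI (25.7 to 45.2%) against 14.7% of the reference, and 62.0% against 25.8% before thinning.

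Tlr1, which forms the heterodimer with TLR2, stood at 41.8, 44.7 and 62.1 CPM in lipid-gated cells, from 31 UMIs. No run of either gene overlapped the reference. Its change was 1.47 ± 0.35, 2.77-fold (edgeR adjusted p = 0.00048). Tlr6, the other partner of TLR2, gave 2.78, 33.5 and 15.5 CPM against 22.5, 21.5 and 22.8 in the reference, and did not pass (edgeR adjusted p = 0.484). Tlr3 stood at 44.6, 50.2 and 46.6 CPM, below each reference run, a change of −0.76 ± 0.26 (edgeR adjusted p = 0.0301).

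The co-receptor genes Cd14 and Ly86 did not pass in lipid-gated cells. Cd14 gave 440, 452 and 372 CPM, on both sides of the reference range, a difference of 0.11 ± 0.12 (edgeR adjusted p = 0.646), and Ly86 gave a difference of −0.11 ± 0.09. Tlr4 (−0.52 ± 0.30), Tlr7 (−0.30 ± 0.20), Tlr13 (0.16 ± 0.22) and Myd88 (−0.56 ± 0.32) did not pass either, with edgeR adjusted p between 0.287 and 0.742. Border macrophage markers summed to 5.6 to 31.0 CPM in lipid-gated cells, with 6 of 8 at 0, against 3.32 to 6.59 in the reference. Ccl3 plus Ccl4, the markers of the chemokine gate, summed to 610, 971 and 768 CPM against 13.99, 21.2 and 52.5 in the reference, and their part in the Tlr2 result was not tested. The median depth was 5807 UMIs per cell.

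In lipid-gated cells the call of Tlr3 was lost without any 1 of the runs (−0.59, −0.89 and −0.74 without runs 1, 2 and 3; adjusted p = 0.477, 0.0518 and 0.0787), and that of Tlr1 was lost after thinning (1.29, adjusted p = 0.345). Tlr3 passed in 6 of 14 alternatives and Tlr1 in 12 of 13. With looser gates, which admit cells with 1 marker fewer, the change of Tlr2 was 0.996 and still passed.

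Around these genes, 1 of 41 tested genes of the pathway lists rose in lipid-gated cells and 4 fell, with a median change of −0.13 against −0.11 over all genes. Hsp90b1, whose product is the chaperone that folds Toll-like receptors, rose from 815 ± 58.4 to 1262 ± 138 CPM (SD, n = 3), a change of 0.64 ± 0.10. The genes that fell were Unc93b1, which carries the endosomal receptors to endosomes (−0.47 ± 0.11, named after its values were seen), Tab2, an adaptor of the TAK1 kinase (−1.04 ± 0.21), Cyld, a deubiquitinase that restrains NF-kB (−0.86 ± 0.31), and Irf5, a transcription factor downstream of MYD88 (−0.70 ± 0.17). Tlr5 and Tlr12 were tested and did not pass.

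Chemokine-gated cells, which are rich in Ccl3 and Ccl4 RNA, carried more Tlr2 and more Cd14. These 2 of the 10 genes rose and none fell, where 6.14% of 11062 genes passed (3.48% higher, 2.66% lower). Tlr2 stood at 196, 185 and 261 CPM in runs 1, 2 and 3, a change of 1.49 ± 0.20, 2.82-fold (edgeR adjusted p = 1.25e-11). Cd14 stood at 725, 490 and 568 CPM, a change of 0.58 ± 0.13, 1.5-fold (edgeR adjusted p = 0.000484). For both genes all 3 runs lay above all 3 reference runs, and run 1 was the highest for Cd14.

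At equal depth 25.3% of chemokine-gated cells held a Tlr2 UMI (16.9 to 35.2%), and 62.1% a Cd14 UMI (51.6 to 71.9%), an interval that includes the 54.0% of the reference. The immediate early gene markers moved with this population. They summed to 1767, 2177 and 2101 CPM in the 3 runs, against 28.5, 42.5 and 441 in the reference, and their part in the result was not tested. Lipid gate markers summed to 102, 285 and 409 CPM against 37.6 to 48.1, which was not tested either. Border macrophage markers summed to at most 11.4 CPM, with 5 of 8 at 0.

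Other members spread more widely. Tlr13 stood at 162, 92.6 and 108 CPM, above the reference in each run, but its change of 0.66 ± 0.24 did not pass (edgeR adjusted p = 0.0832). Tlr3 gave 34.1, 33.1 and 51.1 CPM, below the reference in each run, and did not pass (−0.91 ± 0.33, edgeR adjusted p = 0.0771). It did pass with stricter gates (−1.33), with looser gates (−0.99) and without cells meeting several gates (−1.20). For chemokine-gated cells, stricter gates asked for 0.5% of UMIs as Ccl3 plus Ccl4, and looser gates for 0.1%. Myd88 gave 17.1, 46.3 and 0 CPM from 9 UMIs (−1.20 ± 0.45, edgeR adjusted p = 0.0983), and Tlr7 gave 68.3, 59.6 and 90.9 CPM (−0.61 ± 0.26, edgeR adjusted p = 0.175). Tlr1 at 42.7, 33.1 and 22.7 CPM rested on 14 UMIs (0.94 ± 0.51). Tlr9 had no UMI in these cells, so no fold is given.

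The call of Cd14 was lost without run 1 (0.42, adjusted p = 0.117) and with looser gates (0.29, adjusted p = 0.157), and it passed in 12 of 15 alternatives. Tlr2 passed in every alternative run for this comparison, 15 of 15, between 1.21 and 1.78.

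Of the pathway lists, 4 of 41 genes rose in chemokine-gated cells and 1 fell, with a median of −0.08 against −0.18 over all genes. Cd180, the receptor-like partner of LY86, rose from 216 ± 21.7 to 452 ± 56.2 CPM, a change of 1.11 ± 0.15 (edgeR adjusted p = 7.46e-11), while Ly86 itself did not pass (0.09 ± 0.09). Traf3, a ubiquitin ligase of the interferon branch, rose from 11.2 ± 2.47 to 36.6 ± 5.27 CPM, from 16 UMIs. Nfkb1, an NF-kB subunit gene, rose from 164 ± 12.4 to 272 ± 87.2 CPM. Its log2 ratios were 1.00, 0.14 and 0.88 in the 3 runs, and its range overlapped the reference. Irf8, a factor of the macrophage lineage named after its values were seen, rose by 0.37 ± 0.12. Tab2 fell by 1.06 on the log2 scale.

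Lipid-gated and chemokine-gated cells, the states with the highest Tlr2, were compared directly. Only 5 of the 10 genes passed the low-count filter between these small populations, among 2744 genes, of which 11.4% passed the threshold (4.63% higher and 6.81% lower in lipid-gated cells). Cd14 was lower in lipid-gated cells, 422 ± 43.0 against 594 ± 120 CPM (SD, n = 3), a change of −0.51 ± 0.17 (edgeR adjusted p = 0.0463). The difference of Tlr2 was 0.37 ± 0.21 (edgeR adjusted p = 0.291), with 283 ± 90.2 CPM in lipid-gated cells against 214 ± 41.0. Cd14 thus sits just inside the threshold and Tlr2 outside it. Ly86, Tlr7 and Tlr13 did not pass, and 9 lipid-gated cells also met the chemokine gate.

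The Cd14 call was lost without any 1 of the runs (−0.37, −0.67 and −0.47 without runs 1, 2 and 3; adjusted p = 0.298, 0.0512 and 0.119), and it passed in 2 of 13 alternatives (adjusted p up to 0.597). Cd180 and Nfkb1 were also lower in lipid-gated than in chemokine-gated cells (−0.84 ± 0.19 and −1.01 ± 0.23), as was Irf8 (−0.60 ± 0.16), and Hsp90b1 was higher (0.66 ± 0.14). These were 4 of the 13 pathway genes tested there. For Nfkb1 the run ranges of the 2 populations overlapped.

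**Figure D3:**
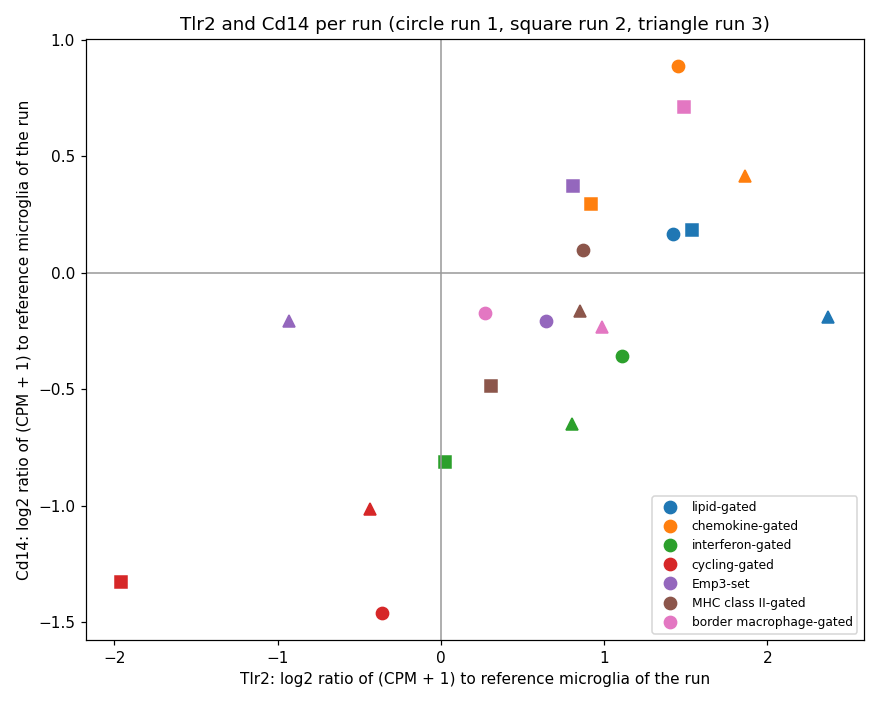
Log2 ratio of (CPM + 1) to reference microglia of the same run for Tlr2 (x axis) and Cd14 (y axis); each point is a population in a run, colours give the population and shapes the run. The 3 cycling-gated points are the lowest for Cd14, the 3 interferon-gated points lie below 0 for Cd14 and right of 0 for Tlr2, and the 3 chemokine-gated points lie above 0 on both axes.

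Interferon-gated cells carried more Tlr3 and Tlr2 and less Cd14. These were 3 of the 10 genes, where 1.72% of 11070 genes passed (1.43% higher, 0.289% lower). Tlr3, a gene known to respond to interferon, stood at 141, 128 and 187 CPM in runs 1, 2 and 3, a change of 0.84 ± 0.23, 1.79-fold (edgeR adjusted p = 0.0141). Each run lay above the whole reference range. At equal depth 26.0% of these cells held a Tlr3 UMI (16.5 to 37.6%) against 14.6% of the reference.

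Tlr2 stood at 155, 99.2 and 125 CPM, a change of 0.79 ± 0.23, 1.72-fold (edgeR adjusted p = 0.0452). In run 2 it was almost level with the reference of that run, at 97.5 CPM. Lipid gate markers summed to 109, 14.2 and 208 CPM, lowest in run 2 as well, and their part in the Tlr2 result was not tested. Cd14 stood at 305, 227 and 270 CPM, below every reference run, a change of −0.57 ± 0.15, 0.675-fold (edgeR adjusted p = 0.0109). The Cd14 share of thinned cells, 50.7% (38.7 to 62.6%), overlapped the 54.0% of the reference.

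Other endosomal receptor genes, the adaptor gene and Ly86 did not pass in interferon-gated cells. Tlr7 stood at 128, 85.0 and 114 CPM (−0.10 ± 0.23), Myd88 at 59.2, 28.3 and 41.6 CPM (0.04 ± 0.36) and Ly86 at 2729, 2098 and 2693 CPM (0.13 ± 0.10). Tlr13 was more uneven, at 86.6, 14.2 and 72.8 CPM (−0.20 ± 0.29). Each of these ranges overlapped the reference, and Tlr9 had 1 UMI.

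Each of the 3 calls was lost without run 3 (Tlr3 0.70, adjusted p = 0.617; Tlr2 0.74, adjusted p = 0.427; Cd14 −0.56, adjusted p = 0.290). Without run 1 those of Tlr3 (1.01, adjusted p = 0.137) and Tlr2 (0.38, adjusted p = 0.979) were lost, and without run 2 that of Cd14 (−0.47, adjusted p = 0.159). Over all 15 alternatives Tlr3 passed in 8 (adjusted p up to 0.686), Tlr2 in 4 (up to 0.979) and Cd14 in 9 (up to 0.554), and DESeq2's Wald test called none of the 10 genes.

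Of the pathway lists, 3 of 41 genes rose in interferon-gated cells and none fell, with a median of 0.01 against −0.13 over all genes. Irf7, the interferon-inducible factor behind endosomal receptor signalling, rose from 3.85 ± 0.728 to 219 ± 55.5 CPM, a change of 5.72 ± 0.39. Peli1, a ubiquitin ligase of the pathway listed here among inhibitors, rose by 0.85 ± 0.17, and Cd180 by 0.58 ± 0.15. The trafficking gene Unc93b1 stood at 1265 ± 485 CPM against 1099 ± 346 and did not pass.

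Cycling-gated cells carried less Cd14, Tlr3 and Tlr4. These 3 of the 10 genes fell and none rose, where 16.9% of 11219 genes passed (8.75% higher, 8.19% lower). Cd14 stood at 142, 158 and 210 CPM in runs 1, 2 and 3, far below the reference range, a change of −1.48 ± 0.20, 0.360-fold (edgeR adjusted p = 2.57e-12). At equal depth 22.0% of cycling-gated cells held a Cd14 UMI (12.3 to 34.7%) against 54.0% of the reference, and 58.3% against 75.0% before thinning. Cycling-gated cells were the deepest tested population, at a median of 6837 UMIs.

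Tlr4, which signals with CD14, stood at 27.6, 48.7 and 10.5 CPM from 12 UMIs, a change of −1.18 ± 0.40 (edgeR adjusted p = 0.0231), and in run 2 it was level with the reference. Tlr3 stood at 39.4, 73.0 and 52.5 CPM, a change of −0.89 ± 0.32 (edgeR adjusted p = 0.0329), and in run 2 it lay above the 65.9 CPM of the reference. Both calls were lost without run 1 (Tlr4 −1.16, adjusted p = 0.308; Tlr3 −0.54, adjusted p = 0.621) and without run 3 (Tlr4 −0.93, adjusted p = 0.175; Tlr3 −0.91, adjusted p = 0.0883), and Tlr4 passed in 8 and Tlr3 in 9 of 15 alternatives. Cd14 passed in 15 of 15, between −2.03 and −1.23.

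Tlr2 stood at 55.2, 24.3 and 52.5 CPM, below each reference run, and just missed the threshold (−0.83 ± 0.32, edgeR adjusted p = 0.0502). It passed with 1 more marker per gate (−0.93), a stricter cell filter (−1.20) and all other microglia-gated cells as reference (−0.89). Tlr1 had 2 UMIs in cycling-gated cells. Ly86 at 2376, 1692 and 2552 CPM and Tlr7 at 86.7, 122 and 126 CPM overlapped the reference and did not pass (−0.21 ± 0.14 and −0.37 ± 0.24).

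Of the pathway lists, 1 of 41 genes rose in cycling-gated cells and 6 fell, with a median of −0.39 against −0.18 over all genes. The genes that fell were Unc93b1 (from 1099 ± 346 to 486 ± 142 CPM, −1.32 ± 0.16), Ly96, the MD-2 partner of TLR4 (−1.04 ± 0.35), the kinase genes Irak2 (−0.98 ± 0.37) and Ikbkb (−0.77 ± 0.29), Irf5 (−0.82 ± 0.21) and Tab2 (−0.73 ± 0.24), which was named after its values were seen because it was lower in only 2 of the 3 runs. Irak2 rested on 15 UMIs, with log2 ratios of −0.71, −6.02 and −0.01 in the 3 runs, and its range overlapped the reference. Ikbkb was nearly level with the reference in run 2 (−0.02). Irf7 rose, from 3.85 to 40.9 ± 26.7 CPM on 19 UMIs. The 9 markers of the interferon gate were also higher there, at 102, 304 and 31.5 CPM against 22.9 to 25.2 in the reference, and their part in the Irf7 result was not tested.

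The next comparisons ask how cells of the gates applied before the microglial states differ. The microglia gate was also met by 84.0% of MHC class II-gated and by 100% of Emp3-set cells. MHC class II-gated cells carried more Tlr2 and less Tlr7, which are 2 of the 10 genes, where 10.5% of 11252 genes passed (6.19% higher, 4.36% lower). Tlr2 stood at 131, 121 and 129 CPM in the 3 runs, above every reference run, a change of 0.90 ± 0.23, 1.87-fold (edgeR adjusted p = 0.00135). Tlr7 stood at 100, 34.5 and 42.2 CPM, below the reference of its own run each time but overlapping between runs, a change of −0.85 ± 0.26 (edgeR adjusted p = 0.0158). Tlr1 at 21.8, 51.7 and 36.1 CPM missed the threshold narrowly (1.18 ± 0.42, edgeR adjusted p = 0.0501). It passed with 1 more marker per gate (1.33), DESeq2 size factors (1.25), mixed droplets left out (1.35) and run 1 left out (1.53). Under 1 more marker per gate the cells went from 36 to 19 in run 1 and from 42 to 38 in run 3. In run 2 they rose from 22 to 27, since cells released by earlier gates could enter. Cd14 (0.01 ± 0.21) and Ly86 (0.04 ± 0.26) did not pass.

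Microglia markers summed to 15390, 9141 and 9298 CPM in these cells against 24790, 31154 and 26385 in the reference. Border macrophage markers summed to 192, 1000 and 403 CPM, with 3 of 8 at 0, against 3.32 to 6.59, and the part of other macrophages in the result was not tested. Markers of other gates were also higher. Lipid gate markers summed to 620, 1587 and 1475 CPM against 37.6 to 48.1 in the reference, and Ccl3 plus Ccl4 to 1811, 776 and 148 CPM against 13.99 to 52.5, and their part in the Tlr2 result was not tested. Without run 3 neither call was kept (Tlr2 0.75, adjusted p = 0.264; Tlr7 −0.53, adjusted p = 0.687), and without run 2 that of Tlr7 was lost (−0.77, adjusted p = 0.0749). Leaving out cells that met several gates took Tlr2 to 0.15 (adjusted p = 0.925) and ended both calls. Tlr2 passed in 9 and Tlr7 in 7 of 13 alternatives.

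Of the pathway lists, 3 of 42 genes rose in MHC class II-gated cells and 2 fell, with a median of −0.24 against −0.15 over all genes. Irf7 rose from 3.85 to 178 ± 175 CPM, with run 2 the highest at 379 CPM. The 9 markers of the interferon gate summed to 794, 1121 and 232 CPM there, also highest in run 2, and their part in the Irf7 result was not tested. Socs1, a brake on cytokine signalling, rose by 2.37 ± 0.46. The scavenger receptor gene Cd36, a co-receptor of TLR2, rose from 0.161 to 39.2 ± 11.5 CPM. Chuk, the gene of an IKK kinase, fell by 1.03 on the log2 scale and Peli1 fell by 0.68. Chuk rested on 16 UMIs, with log2 ratios of −0.04, −5.76 and −2.07 in the 3 runs.

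Border macrophage-gated cells differed in Tlr2 alone among the 10 genes, where 12.2% of 11410 genes passed (7.34% higher, 4.82% lower), so the count is no larger than in genes at large. Tlr2 stood at 86.1, 275 and 142 CPM in the 3 runs, a change of 1.01 ± 0.21, 2.01-fold (edgeR adjusted p = 4.73e-05). It was higher than the reference of its own run each time, and run 2 was the highest. Lipid gate markers summed to 179, 166 and 478 CPM and Ccl3 plus Ccl4 to 73.1, 275 and 885 CPM, above the reference in each run, and their part in the Tlr2 result was not tested. Without run 2 the call was lost (0.73, adjusted p = 0.0772), as it was with 1 more marker per gate (0.41, adjusted p = 0.375) and without cells that met several gates (0.43, adjusted p = 0.604). It passed in 8 of 13 alternatives.

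Ly86 stood at 1563, 1068 and 1381 CPM, below every reference run, and missed the threshold (−0.61 ± 0.22, edgeR adjusted p = 0.0512). It passed without run 1 (−0.69, adjusted p = 0.000275) and without the droplets of mixed sex-linked transcripts (−0.67, adjusted p = 0.000167). It also passed with 1 fit over all populations (−0.54), 1 more marker per gate (−0.77) and no low-count filter (−0.64). Thinned cells (−0.85) and leaving out cells that met several gates (−0.94) took it past the threshold as well. Tlr3 stood at 67.2, 44.8 and 14.9 CPM (−0.72 ± 0.26, edgeR adjusted p = 0.0502) and likewise passed without run 1 (−1.37, adjusted p = 0.00921) and without those mixed droplets (−1.31, adjusted p = 0.000155). The mixed droplets lay mostly in run 1, where leaving them out took the gate from 83 to 57 cells. The gate went from 35 to 34 cells in run 2 and from 54 to 51 in run 3. These 2 alternatives thus removed many of the same cells and are not separate checks. Tlr4, Tlr7, Tlr13, Cd14 and Myd88 did not pass, with differences between −0.26 and 0.22.

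Microglia markers in the border macrophage gate summed to 14439, 7075 and 3987 CPM in runs 1, 2 and 3, and 79.1% of its cells met the microglia gate. The share of microglial RNA in the Ly86 and Tlr3 values was not tested. Tlr3 was lowest in run 3, where the microglia markers were lowest too, and Ly86 was lowest in run 2.

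Of the pathway lists, 4 of 42 genes rose in border macrophage-gated cells and 2 fell, with a median of −0.01 against −0.11 over all genes. Cd36 rose from 0.161 to 84.7 ± 27.4 CPM, and Irf7 from 3.85 to 85.7 ± 47.7 CPM. Interferon gate markers summed to 317, 774 and 1135 CPM in these cells against 22.9 to 25.2 in the reference, and their part in the Irf7 result was not tested. Irak3, the inhibitory IRAK gene, rose from 2.07 ± 0.262 to 11.0 ± 4.47 CPM. Cd180 fell from 216 ± 21.7 to 94.7 ± 24.3 CPM (−1.005 ± 0.227), in the same cells in which its partner gene Ly86 narrowly missed the threshold, and Irf5 fell by 0.72 on the log2 scale. Tlr8, which was at 0 in reference microglia, had 12 UMIs in border macrophage-gated cells and was not tested.

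In the 63 cells with Emp3, Fxyd5 and Tnfsf13b none of the 10 genes passed, where 1.58% of 11067 genes did (1.07% higher, 0.515% lower). At an unadjusted p under 0.05 there was 1, Ly86, and DESeq2's Wald test called 0. Ly86 stood at 3455, 2546 and 3105 CPM, above every reference run (0.42 ± 0.14, edgeR adjusted p = 0.0859). It passed with DESeq2 size factors (0.52), with 1 more marker per gate (0.48) and with a stricter cell filter (0.40). The Emp3-set gate already asked for all 3 of its markers, so 1 more marker could not tighten it. Under that setting the gate went from 18 to 22 cells in run 3, and runs 1 and 2 kept 32 and 13. Tlr3 at 69.8, 125 and 135 CPM and Cd14 at 339, 516 and 368 CPM overlapped the reference. Of the pathway lists 1 of 41 genes rose, Irf7, named after its values were seen because it was higher in only 2 of the 3 runs. Interferon gate markers summed to 944, 15.6 and 135 CPM in these cells and cycling gate markers to 744, 15.6 and 331 CPM, against 22.9 to 25.2 and 8.01 to 9.64 in the reference. Their part in the Irf7 result was not tested.

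The early-gene gate could not be tested, with 2 and 3 cells in runs 1 and 2. In its 128 cells of run 3, Tlr2 stood at 84.5 CPM against 71.1 in the reference of that run, Cd14 at 498 against 425, Tlr3 at 76.0 against 83.8, Tlr7 at 128 against 131 and Ly86 at 2576 against 2471 CPM. With 1 run these values have no replicate check.

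Since both sexes entered the runs, reference microglia were also compared by sex-linked transcripts. Xist cells were the 8409 with at least 2 Xist UMIs and no Y-linked UMI. Y cells were the 5104 with at least 1 Y-linked UMI and no Xist UMI. Other reference cells entered neither group. None of the 10 genes passed, where 0.401% of 11210 genes did (0.223% higher in Xist cells, 0.178% lower). At an unadjusted p under 0.05 there was 1, Tlr4, and DESeq2's Wald test called 0. The X-linked Tlr7, known to escape X inactivation in some immune cells, stood at 114 ± 22.4 CPM in Xist cells and 120 ± 17.5 in Y cells (SD, n = 3), a difference of −0.07 ± 0.05 (edgeR adjusted p = 0.691). The difference of the X-linked Tlr13 was 0.01 ± 0.06 (edgeR adjusted p = 0.970). Tlr4 stood at 51.2 ± 7.12 against 56.8 ± 2.23 CPM (−0.14 ± 0.06, edgeR adjusted p = 0.470). The differences of the 9 genes other than Tlr9 lay between −0.14 and 0.05.

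**Figure D4:**
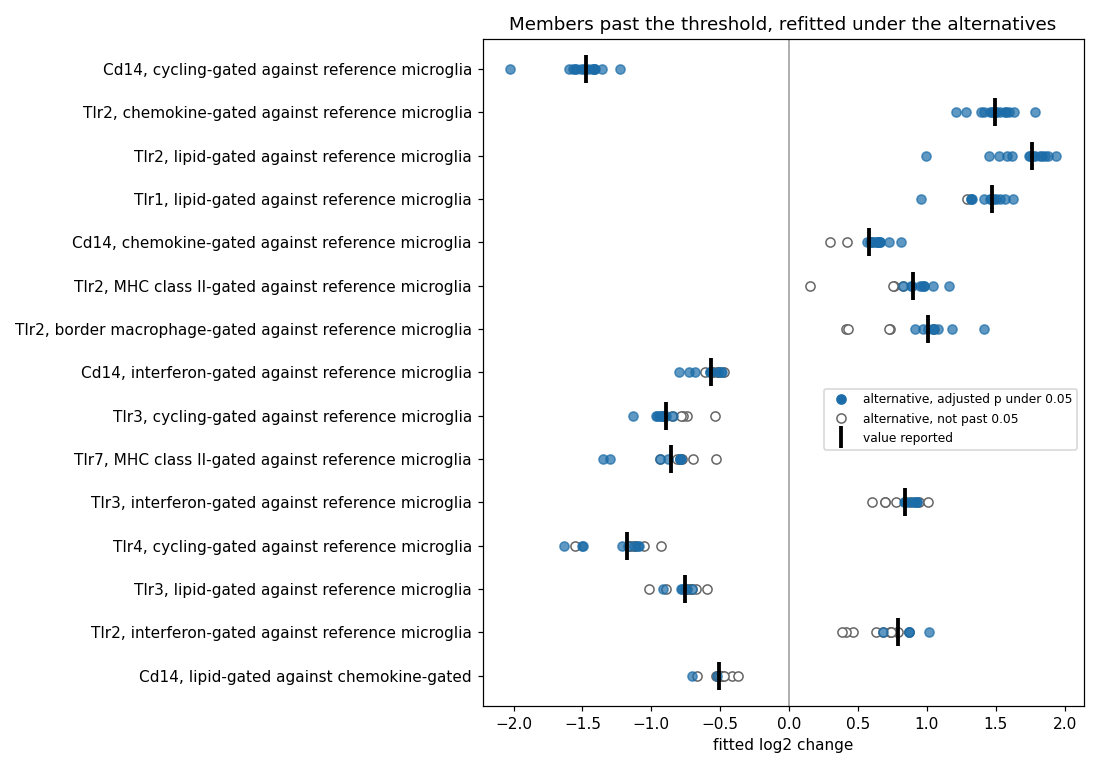
Fitted log2 change (x axis) of each of the 15 gene and comparison pairs that passed the threshold (rows); the bar is the value reported, filled points are alternatives that passed and open points alternatives that did not. No point crosses 0; Cd14 in cycling-gated cells and Tlr2 in chemokine-gated and lipid-gated cells have filled points only.

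Ordered by mean level over the 8 populations with enough cells, Tlr2 ran from lipid-gated cells (283 ± 90.2 CPM) through chemokine-gated (214 ± 41.0), border macrophage-gated (168 ± 97.1), MHC class II-gated (127 ± 5.51), interferon-gated (126 ± 27.9) and Emp3-set cells (107 ± 67.6) to reference microglia (79.9 ± 15.2) and cycling-gated cells (44.0 ± 17.1). Of the 7 pairs of neighbours in that order, only the last did not overlap between runs. Cd14 ran from chemokine-gated cells (594 ± 120) to interferon-gated (267 ± 39.3) and cycling-gated cells (170 ± 35.6), again with 1 of 7 neighbouring pairs apart. For Tlr3, Tlr4, Tlr7, Tlr9, Ly86 and Myd88 no neighbours were apart, for Tlr1 1 pair and for Tlr13 2 pairs. The highest mean of Tlr3 was in interferon-gated cells (152 ± 31.2) and the lowest in chemokine-gated cells (39.4 ± 10.1), and the highest of Ly86 in Emp3-set cells (3036 ± 458) and the lowest in border macrophage-gated cells (1337 ± 250).

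Over the 24 sums of population and run, which share 3 libraries and rest on few cells outside the reference, Tlr1 and Tlr2 had the highest correlation of any pair of the 10 genes (Pearson r = 0.83 of log2 CPM), followed by Tlr2 and Cd14 (r = 0.68) and Tlr13 and Cd14 (r = 0.60). The lowest was between Tlr1 and Tlr7 (r = −0.33). Among all genes with a mean of at least 20 CPM, Tlr2 was most like Gabarap (r = 0.85), Tlr1 (r = 0.83) and Cd63 (r = 0.82), and Tlr1 most like Zrsr2 (r = 0.87), Gabarap (r = 0.85) and Tlr2. Tlr3 was most like Adora3 (r = 0.86), Cd14 most like Rin2 (r = 0.83), Ly86 most like Epb41l2 (r = 0.81), Tlr7 most like Cd164 (r = 0.82) and Tlr13 most like Nr2c2ap (r = 0.84). For Tlr4 the closest gene was Cnrip1 (r = 0.74) and for Myd88 Aasdhppt (r = 0.78).

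In no comparison as reported did Tlr9, Tlr13, Ly86 or Myd88 pass, which are 4 of the 10 genes. Some passed in alternatives. Tlr13 did so in chemokine-gated cells with DESeq2 size factors (0.73) and without mixed droplets (0.76). Myd88 did so in cycling-gated cells with 1 more marker per gate (−1.43) and a stricter cell filter (−1.51). Ly86 did so in border macrophage-gated and Emp3-set cells, and in lipid-gated cells without run 1 (−0.27) and with a stricter cell filter (−0.40). For Myd88, the adaptor on which all of the receptors here except TLR3 rely, differences lay between −1.20 and 0.05, and its lowest counts, 9 UMIs in chemokine-gated cells and 12 in cycling-gated cells, limit what could be detected. Tlr9 was seen in 1.12% of reference microglia and had at most 3 UMIs in any tested population outside the reference.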

How the data were processed

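Single-cell RNA was measured in 3 runs of 1 group. The authors deposited, for each run, a matrix of raw counts per gene and cell barcode, with 1 count per UMI. Per the submitters' processing notes Cell Ranger, Seurat 4.0 and mm10 were used, and the software version in the file headers is 3.0.2 for run 1 and 3.1.0 for both other runs. The files held 7255, 6895 and 6226 barcodes with 34140879, 24717907 and 24225612 UMIs.

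Cells were kept from 1000 UMIs and 500 genes upwards, with mitochondrial UMIs at 10% or less. No doublet caller was run, and droplets that mix Xist with Y-linked transcripts served as the check of doublets. Of the gate markers, 1 was not matched to a listed gene. CPM values were computed here from summed counts, with 1 CPM added before log2 ratios were taken. Of the gene IDs, 99.6% were found in GENCODE M21. The members, gates and lists were chosen with earlier results of these data known.

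Populations with at least 10 cells in each run were tested with edgeR 4.0.16 in R 4.3.3 (glmQLFit, glmQLFTest, TMM scaling, filterByExpr), a block per run, and all gate markers kept out of the genes tested. An adjusted p under 0.05 counted as passing. The runs pair the sums, since 1 library gave both: same-run deviations from the 2 population means correlated at 0.154 to 0.373 between populations and 0.688 to 0.780 between Xist and Y cells, across genes. The prior degree of freedom was infinite in the comparisons with reference microglia, meaning that genes shared a single trend of spread. A gene's own spread between runs did not enter its p-value there. The test was checked on simulated counts.

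Besides the 10 genes, pathway genes of the 47 listed are named when they passed with a change of at least 0.5 and the same direction in the 3 runs, at most 6 per comparison, with exceptions marked in the text, and for each of the 10 genes up to 3 genes most like it. The alternatives were DESeq2 1.42.0 (Wald test and size factors), no low-count filter, stricter cells, stricter gates, thinned cells, no block, 1 fit over all populations, all other microglia-gated cells as reference, cells meeting several gates or mixing sex-linked transcripts left out, each run left out, and looser gates, which were chosen after seeing the data. Stricter gates asked for 1 more marker, except the microglia gate and the Emp3-set gate, which already needed all of its markers. Looser gates asked for 1 marker fewer in the microglial states. The chemokine gate was instead set to 0.5% of UMIs in stricter and 0.1% in looser gates.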

Additional observations from a re-analysis of the deposited data

How the results depend on the processing

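Of the pairs of a gene and a comparison, none of the 15 that passed took the other sign under any alternative, while 36 of the 70 that did not pass did so in at least 1. The next counts cover single results of the 10 genes and of pathway genes that were picked for passing as reported. Of these, 1335 kept their side of the threshold, 193 lost their pass and 29 gained one. The picked pathway genes could lose a pass but not gain one. For the 10 genes, 434 levels moved by less than the spread between runs against 36 that moved more. Few cells limit the gated populations, where a gene often rested on fewer than 50 UMIs. Counts of the 10 genes called changed as follows, and the cause was not tested.

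Without the replicate block, that is, without pairing the sums of a run, the count was 0 for MHC class II-gated (2 as reported), border macrophage-gated (1), interferon-gated (3) cells and for lipid-gated against chemokine-gated cells (1), and 1 for chemokine-gated (2) and cycling-gated (3) cells. It changed no other count by over 1.5 times. DESeq2's Wald test gave 1 for MHC class II-gated and cycling-gated cells and 0 for interferon-gated cells and for lipid against chemokine. Thinned cells gave 1 for lipid-gated (3) and cycling-gated cells and 0 for MHC class II-gated and interferon-gated cells and for lipid against chemokine. With 1 fit over all populations the count was 1 for lipid-gated, cycling-gated and interferon-gated cells, 2 for border macrophage-gated cells and 0 for lipid against chemokine. A stricter cell filter gave 1 for interferon-gated and Emp3-set cells (0 as reported) and 0 for lipid against chemokine. DESeq2 size factors gave 1 for Emp3-set cells and 0 for lipid against chemokine. With 1 more marker per gate there were 5 for cycling-gated and 1 for Emp3-set cells, whose own gate could not be tightened. No low-count filter gave 2 for border macrophage-gated cells and 0 for lipid against chemokine, and looser gates gave 0 there. Without droplets of mixed sex-linked transcripts, border macrophage-gated cells had 3, and without cells meeting several gates MHC class II-gated cells had 0.

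Leaving out each run in turn gave 0 to 3 for MHC class II-gated and border macrophage-gated cells, 1 to 2 for chemokine-gated, 1 to 3 for cycling-gated, 0 to 2 for interferon-gated cells and 0 throughout for lipid against chemokine. Over all genes, the count called ranged from 557 (no block) to 2023 (looser gates) around 1465 for lipid-gated cells, from 229 (no block) to 755 around 679 for chemokine-gated, from 116 (1 fit) to 215 around 190 for interferon-gated and from 672 (thinned) to 1963 around 1901 for cycling-gated cells. It ranged from 296 (without run 3) to 1874 (1 more marker) around 1187 for MHC class II-gated cells. For border macrophage-gated cells it ranged from 568 (without run 3) to 1836 (mixed cells left out) around 1387. For Emp3-set cells it ranged from 43 (without run 1) to 295 (1 more marker on other gates) around 175. It ranged from 70 (Wald test) to 324 around 314 for lipid against chemokine, and from 0 (no block) to 114 (no low-count filter) around 45 for Xist against Y cells. Lipid-gated cells with 1 more marker per gate were not run, against the reference or chemokine-gated cells, because a run had fewer than 10 of them.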
